A study of Mus musculus with 12 samples.

Results

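The mitogen-activated protein (MAP) kinases ERK, p38 and JNK carry signals from growth factor receptors and from stress to the nucleus, and several of the genes that they switch on encode proteins that switch the same pathway off again. The 10 feedback inhibitors described here were picked by name: 5 Dusp genes, 3 Spry genes, 1 Spred gene and Errfi1, out of 20718 genes in the expression table. Dual-specificity phosphatases (Dusp) remove the activating phosphates from MAP kinases, Sprouty (Spry) and Spred proteins act further upstream between the receptor and Ras or Raf, and Errfi1 (also called Mig6) binds the epidermal growth factor receptor and blocks its kinase. Many of their mRNAs are short-lived and follow recent signalling, and in the testis ERK signalling is known from Sertoli cells, Leydig cells and spermatogonia. The genes were proposed with results of these libraries in view, so their values below are a description of the 12 libraries and not independent evidence.

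RNA was sequenced from testes of mice, given as the IRC strain in the labels and as ICR in the methods, that had been injected with lentivirus into the testes at 4 weeks of age and were collected after 5 further weeks and a short mating period. The F0_5251KD group received the LV3 vector with 3 short hairpin RNAs (shRNAs) against the long non-coding RNA lncRNA5251, and the F0_3NC group received the same LV3 backbone with a negative control shRNA. The F0_5251OV group received the LV5 vector with full-length lncRNA5251, and the F0_5NC group received the LV5 vector alone. Each group had 3 libraries, and all 4 groups were injected with virus, so no group here shows the level without injection. The 3 knockdown viruses were mixed before injection. Virus backbone and anything else that differed between the LV3 and LV5 animals cannot be told apart. Whether the 3 libraries of one group are 3 animals is not stated, so the errors measure spread between libraries, which may be technical.

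The libraries held between 15431383 and 16355720 counts, a ratio of 1.06, so depth was close to equal, and 16296 genes passed the filter on low counts, all 10 inhibitors among them. Levels are given as CPM with the SD over 3 libraries. CPM is a gene's count divided by the product of its library's total and TMM scaling factor, on one scale for all libraries. Differences are given as log2 fold changes with standard errors (SE) from the quasi-likelihood fit of edgeR. A gene is said to have passed the threshold where its Benjamini-Hochberg adjusted p over all 16296 genes was under 0.05. The tissue carried its defining markers: the spermatid genes had a median of 7135.12 RPKM (reads scaled by transcript length and library total), with Prm1 at the top, the Leydig cell genes had a median of 105.59 RPKM with Insl3 at the top, and the neutrophil genes were at most at 0.16 RPKM. All 3 shRNA target sequences matched 1 gene exactly, Purb, whose count includes any reads of lncRNA5251 from the same exon, and Purb stood at 80.78 ± 10.02 CPM in F0_3NC, 74.85 ± 4.11 in F0_5251KD, 72.89 ± 3.95 in F0_5NC and 75.07 ± 4.99 in F0_5251OV, with groups that overlapped.

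Between genes, levels were compared per length. The mean RPKM over the 12 libraries was highest for Errfi1 at 19.63, followed by Dusp4 at 9.08 and Dusp1 at 8.39. Dusp5 had 3.73 RPKM, Dusp2 and Dusp6 2.29 RPKM each, Spred1 2.10 and Spry1 1.59 RPKM. Spry2 at 1.0 RPKM and Spry4 at 0.74 RPKM were the lowest. Among all genes Errfi1 stood at the percentile 78.4 and Spry2 at 35.5. The same order by CPM does not hold, because the transcripts differ in length, and CPM is used below only to compare libraries for 1 gene. In a whole testis, fewer cells that express a gene and less mRNA per cell cannot be told apart.

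The main pattern was a split between the virus backbones, shown in the plot of CPM by library. Errfi1, Dusp1, Spry2 and Spry4 were higher in each of the 6 LV3 libraries (F0_3NC and F0_5251KD) than in each of the 6 LV5 libraries (F0_5NC and F0_5251OV). Over all genes tested, 0.749% separated the 6 libraries from the other 6 in either direction, 96 genes with LV3 higher (0.589%) and 26 with LV3 lower (0.16%). Dusp4, Dusp2, Dusp5, Dusp6, Spry1 and Spred1 overlapped between the backbones. Nothing is read from these counts about the inhibitors as a class, since the genes were chosen with the values known.

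**Figure D1:**
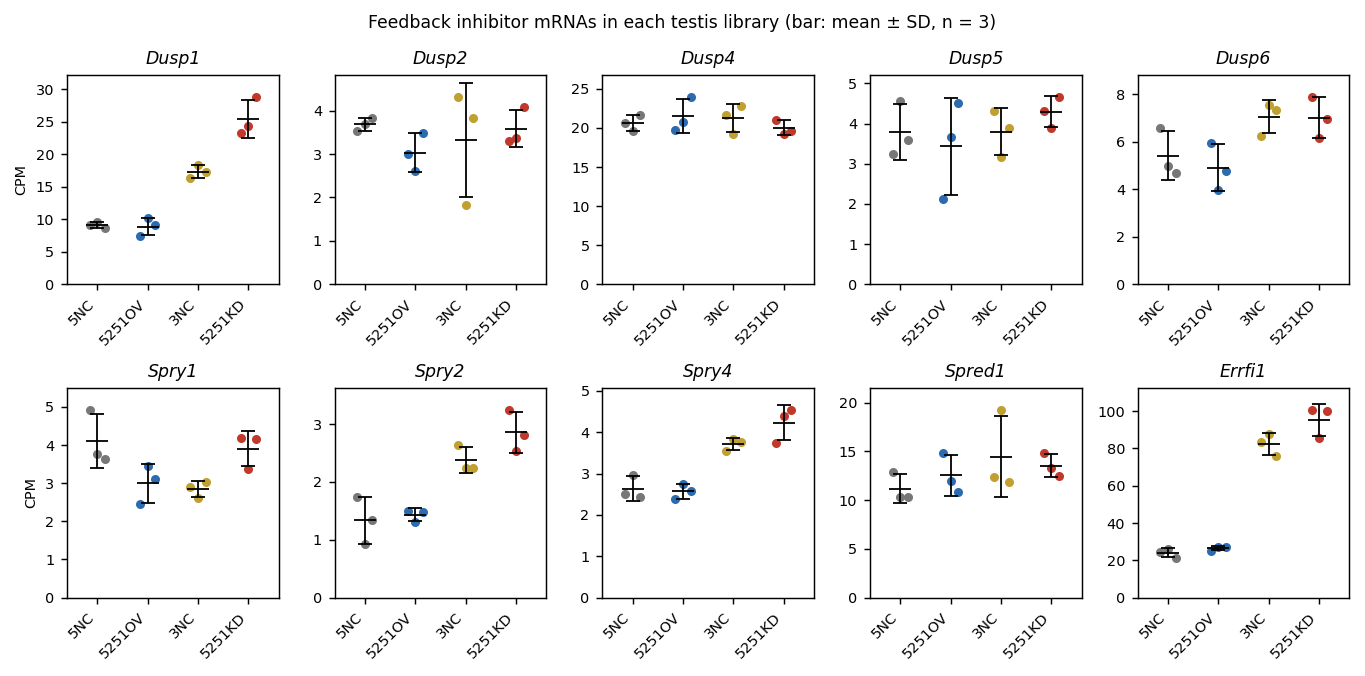
Level of each inhibitor mRNA in CPM (vertical axis, from 0) in the 12 libraries, by group, with the LV5 groups left and the LV3 groups right. Points are libraries, and bars are the mean ± SD of 3. Errfi1 stood at 75.86 to 100.53 CPM in LV3 libraries and 21.48 to 27.38 CPM in LV5 libraries, while Dusp4 stayed between 19.25 and 23.96 CPM throughout.

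Errfi1 (gene ID 74155, chr4:150853796-150868889, plus strand, GRCm38.p6) acts at the receptor, the first step of the pathway. It had 83.72, 87.77 and 75.86 CPM in F0_3NC and 24.56, 26.22 and 21.48 CPM in F0_5NC. In F0_5251KD it had 100.5, 85.47 and 100 CPM, and in F0_5251OV 25.18, 27.13 and 27.38 CPM. The lowest LV3 library was far above the highest LV5 library, whereas within each backbone the treated and control libraries overlapped. Errfi1 passed the threshold in F0_3NC vs F0_5NC, where it was higher by a log2 fold change of 1.78 (SE 0.099, 3.42-fold, 95% interval 2.95 to 3.97), and in F0_5251KD vs F0_5251OV, by 1.84 (SE 0.099, 3.59-fold, 3.10 to 4.16). The difference within the LV3 backbone was 0.21 (SE 0.094, 95% interval 0.01 to 0.41) and that within the LV5 backbone 0.14 (SE 0.1, -0.07 to 0.36), and neither passed the threshold. The difference between these effects was 0.07 (SE 0.137), with an interval from -0.23 to 0.36.

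Dusp1 (gene ID 19252, chr17:26505591-26508472, minus strand) encodes a nuclear phosphatase of p38, JNK and ERK that is itself an early response gene. It had 16.29, 18.36 and 17.30 CPM in F0_3NC and 9.104, 9.509 and 8.630 CPM in F0_5NC. In F0_5251KD it had 23.31, 24.30 and 28.79 CPM, and in F0_5251OV 7.455, 10.11 and 9.042 CPM. The groups thus lay in steps: each F0_5251KD library was above each F0_3NC library, each F0_3NC library was above each LV5 library, and the LV5 groups overlapped. Dusp1 passed the threshold in F0_3NC vs F0_5NC (log2 fold change 0.93, SE 0.127, 1.91-fold) and in F0_5251KD vs F0_5251OV (1.52, SE 0.127, 2.87-fold).

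Within the LV3 backbone Dusp1 differed by a log2 fold change of 0.56 (SE 0.121, 95% interval 0.29 to 0.82, 1.47-fold) between F0_5251KD and F0_3NC. It did not pass the threshold by edgeR there but did by DESeq2. Within LV5 the difference was -0.03 (SE 0.132, -0.32 to 0.25), and the difference of these effects was 0.59 (SE 0.179, 0.21 to 0.98), which did not pass the threshold. An exon of Dusp1 overlaps Ergic1 on the opposite strand, and the library protocol names no step that keeps strand. Ergic1 itself had log2 fold changes of -0.14 in F0_3NC vs F0_5NC, -0.09 in F0_5251KD vs F0_5251OV and 0.09 in F0_5251KD vs F0_3NC (SE 0.119 each).

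Since Errfi1 and Dusp1 were the inhibitors that passed the threshold, their promoters were read from RefSeq windows (GRCm38.p6) that run from 250 bases before to 50 bases after a transcription start. Of the 10 genes, 8 had a window, and Errfi1 had 2, the second at a start inside the gene. The full cAMP response element (CRE) TGACGTCA, the site bound by CREB and ATF proteins, was found in Dusp1, with its first base at position -143 from the start, and in the second Errfi1 window at position -51. It was present in 1.79% of all 32851 windows. The G and C share of these windows was 67.0% in Dusp1 and 66.7% at the second Errfi1 start, above the median of 52.7% over all windows, so the share over all windows is not one among windows of like composition. Both windows are shown because they hold this element, marked in capitals, 5′ to 3′ on the strand of the gene, the first from chr17:26508423-26508722 (minus strand) and the second from chr4:150854820-150855119 (plus strand).
Dusp1: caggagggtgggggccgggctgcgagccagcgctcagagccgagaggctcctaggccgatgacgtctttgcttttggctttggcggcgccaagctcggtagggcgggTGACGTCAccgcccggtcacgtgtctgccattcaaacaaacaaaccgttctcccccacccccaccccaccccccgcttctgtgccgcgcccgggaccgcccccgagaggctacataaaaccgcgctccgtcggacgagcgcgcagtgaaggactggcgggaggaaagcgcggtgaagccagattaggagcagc
Errfi1: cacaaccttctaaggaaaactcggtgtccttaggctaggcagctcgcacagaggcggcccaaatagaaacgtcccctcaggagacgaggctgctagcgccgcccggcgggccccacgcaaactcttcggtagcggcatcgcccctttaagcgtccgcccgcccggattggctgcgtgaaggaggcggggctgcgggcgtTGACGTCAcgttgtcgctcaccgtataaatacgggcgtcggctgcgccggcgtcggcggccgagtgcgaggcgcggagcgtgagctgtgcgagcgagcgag

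The shorter core TGACG, searched like all motifs on both strands and contained in each full CRE, was found in the windows of Dusp1, Dusp2, Dusp5 and Errfi1 and in 20.8% of all windows. A CArG box, the site of serum response factor, was found in the window of Dusp5 alone, where a pair of them lies end to end with first bases at positions -82 and -72, and in 1.63% of all windows. The Dusp5 window (chr19:53528895-53529194, plus strand) is shown with this pair in capitals, because serum response factor is the usual route from ERK to early response genes.
Dusp5: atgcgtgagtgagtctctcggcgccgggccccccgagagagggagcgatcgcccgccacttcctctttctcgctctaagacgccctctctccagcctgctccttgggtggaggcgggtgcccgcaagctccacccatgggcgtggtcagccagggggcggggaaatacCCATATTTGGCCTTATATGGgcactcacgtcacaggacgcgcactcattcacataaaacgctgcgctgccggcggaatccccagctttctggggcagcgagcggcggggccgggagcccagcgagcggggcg

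An EGR motif (GCGNGGGCG) was found in Dusp2 at position -98 and in 5.55% of all windows, and neither an AP-1 motif (TGANTCA, 7.81% of all windows) nor an ETS motif (CCGGAAG, 8.86%) was found in any of the 9 windows. The windows of Dusp6, Spry1, Spry2 and Spred1 and the first window of Errfi1 held none of the 6 motifs. These are matches of letters and say nothing about binding in testis.

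**Figure D2:**
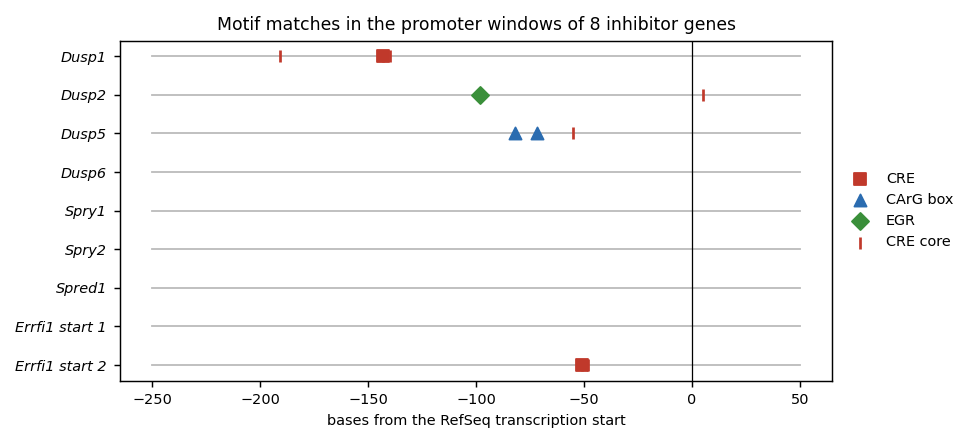
Positions of motif matches (horizontal axis, bases from the RefSeq transcription start) in the promoter windows of 8 inhibitor genes, 1 line per window. Squares are full CREs, ticks the shorter CRE core, triangles CArG boxes and the diamond an EGR motif. Full CREs lie at -143 in Dusp1 and at -51 at the second start of Errfi1.

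The other nuclear phosphatases did not follow Dusp1. Dusp4 (gene ID 319520, chr8:34807610-34819894, plus strand), which acts on ERK and JNK, had 21.64, 19.27 and 22.84 CPM in F0_3NC, 20.66, 19.61 and 21.67 CPM in F0_5NC, 21.08, 19.25 and 19.66 CPM in F0_5251KD, and 19.80, 20.74 and 23.96 CPM in F0_5251OV. Its libraries overlapped in each comparison, and its log2 fold changes were between -0.10 (F0_5251KD vs F0_5251OV, 95% interval -0.33 to 0.12) and 0.06 (F0_5251OV vs F0_5NC, -0.17 to 0.28). With SE values of 0.104, Dusp4 was measured more closely than any other inhibitor except Errfi1.

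Dusp2 (gene ID 13537, chr2:127336159-127338377, plus strand), a phosphatase best known from activated immune cells, had 4.315, 1.823 and 3.829 CPM in F0_3NC and 3.534, 3.698 and 3.836 CPM in F0_5NC. It had 3.303, 3.370 and 4.085 CPM in F0_5251KD and 3.007, 2.609 and 3.488 CPM in F0_5251OV. F0_3NC replicate 2, with 30 counts, was below the other 11 libraries, and the 3 F0_5251OV libraries lay below the 3 F0_5NC libraries by a narrow margin. The log2 fold change was -0.28 (SE 0.261, 95% interval -0.84 to 0.28) in F0_5251OV vs F0_5NC. It was 0.11 in F0_5251KD vs F0_3NC and -0.15 in F0_3NC vs F0_5NC (SE 0.260 each), and without F0_3NC replicate 2 these became -0.18 and 0.15.

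Dusp5 (gene ID 240672, chr19:53529145-53541809, plus strand), a nuclear phosphatase specific to ERK, had means of 3.79 ± 0.58 CPM in F0_3NC, 3.79 ± 0.69 in F0_5NC, 4.29 ± 0.39 in F0_5251KD and 3.43 ± 1.21 in F0_5251OV (SD, n = 3). Its 4 groups overlapped, with single libraries between 2.13 CPM and 4.66 CPM, and the spread was widest in F0_5251OV (2.130, 3.653 and 4.521 CPM). The log2 fold changes were 0.18 (SE 0.245) for knockdown against its control, -0.14 (SE 0.249) in F0_5251OV vs F0_5NC and 0.00 (SE 0.246) in F0_3NC vs F0_5NC. An antisense gene overlaps an exon of Dusp5, and its share of the reads was not separated.

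Dusp6 (gene ID 67603, chr10:99263231-99267489, plus strand) is the cytoplasmic phosphatase of ERK and a common readout of ERK activity. It had 6.247, 7.537 and 7.329 CPM in F0_3NC, 6.588, 4.953 and 4.667 CPM in F0_5NC, 7.875, 6.156 and 6.958 CPM in F0_5251KD, and 5.951, 3.979 and 4.779 CPM in F0_5251OV. The LV3 libraries were the higher ones, with a median of 7.14 CPM against 4.87 CPM, but F0_5NC replicate 1 lay inside their range. The 3 F0_5251KD libraries lay above the 3 F0_5251OV libraries (log2 fold change 0.51, SE 0.185, 95% interval 0.11 to 0.91), and F0_3NC overlapped F0_5NC (0.38, SE 0.183, -0.02 to 0.77). Within the backbones the values were -0.01 (SE 0.180) for LV3 and -0.14 (SE 0.187) for LV5.

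Among the Sprouty genes, Spry2 and Spry4 separated the backbones and Spry1 did not. Spry2 (gene ID 24064, chr14:105891947-105896819, minus strand) had 2.640, 2.249 and 2.245 CPM in F0_3NC, 1.737, 0.9245 and 1.343 CPM in F0_5NC, 3.239, 2.527 and 2.809 CPM in F0_5251KD, and 1.504, 1.305 and 1.486 CPM in F0_5251OV. Each LV3 library was above each LV5 library, on 14 to 51 counts a library. The log2 fold change was 0.82 (SE 0.243, 95% interval 0.30 to 1.35) in F0_3NC vs F0_5NC and 0.99 (SE 0.239, 0.48 to 1.51) in F0_5251KD vs F0_5251OV, and neither passed the threshold. Within the backbones it was 0.27 (SE 0.227) for F0_5251KD vs F0_3NC and 0.09 (SE 0.255) for F0_5251OV vs F0_5NC.

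Spry4 (gene ID 24066) had 3.542, 3.829 and 3.764 CPM in F0_3NC, 2.516, 2.972 and 2.429 CPM in F0_5NC, 3.747, 4.406 and 4.532 CPM in F0_5251KD, and 2.381, 2.740 and 2.583 CPM in F0_5251OV. The lowest LV3 library was 3.54 CPM and the highest LV5 library 2.97 CPM. The log2 fold change was 0.49 (SE 0.169, 95% interval 0.13 to 0.86) in F0_3NC vs F0_5NC and 0.72 (SE 0.168, 0.36 to 1.08) in F0_5251KD vs F0_5251OV, neither past the threshold. Treated and control libraries overlapped within each backbone, with values of 0.19 (SE 0.163) for LV3 and -0.04 (SE 0.174) for LV5.

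Spry1 (gene ID 24063, chr3:37639947-37644599, plus strand), the Sprouty gene known for restraining GDNF and FGF signalling in the urogenital tract, showed another order. It had 2.898, 2.614 and 3.037 CPM in F0_3NC, 4.911, 3.764 and 3.644 CPM in F0_5NC, 4.192, 3.370 and 4.149 CPM in F0_5251KD, and 2.443, 3.457 and 3.100 CPM in F0_5251OV. Each F0_5251KD library was above each F0_3NC library, each F0_5251OV library was below each F0_5NC library, and the controls were themselves apart with F0_3NC lower. The log2 fold changes were 0.45 (SE 0.195, 95% interval 0.03 to 0.88) in F0_5251KD vs F0_3NC, -0.45 (SE 0.194, -0.87 to -0.04) in F0_5251OV vs F0_5NC and -0.53 (SE 0.195, -0.95 to -0.11) in F0_3NC vs F0_5NC, none past the threshold. The difference of the effects was 0.91 (SE 0.275, 0.32 to 1.5), the largest of the 10 inhibitors, and did not pass the threshold either. The treated groups overlapped each other (0.38, SE 0.195, -0.04 to 0.80). These values come from 39 to 82 counts a library, and an unclassified gene overlaps an exon of Spry1 on the opposite strand.

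Spred1 (gene ID 114715, chr2:117121071-117182279, plus strand), which brings the Ras inactivator neurofibromin to the membrane, had 12.37, 19.21 and 11.82 CPM in F0_3NC, 12.88, 10.30 and 10.36 CPM in F0_5NC, 14.80, 13.28 and 12.51 CPM in F0_5251KD, and 14.85, 12 and 10.79 CPM in F0_5251OV. F0_3NC replicate 2, the library that was low in Dusp2, was the highest of the 12 here, and the groups overlapped. The log2 fold change in F0_5251KD vs F0_3NC was -0.10 (SE 0.183), and 0.16 without that library. It was 0.17 (SE 0.186) in F0_5251OV vs F0_5NC and 0.37 (SE 0.185, 95% interval -0.03 to 0.77) in F0_3NC vs F0_5NC.

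Counted over the 10 inhibitors, 2 passed the threshold in F0_3NC vs F0_5NC (Errfi1 and Dusp1, both higher), where 0.331% of all genes tested passed and 0.276% passed as higher, and DESeq2 called the same pair against 0.642% of all genes. Errfi1 and Dusp1 also passed in F0_5251KD vs F0_5251OV, where 0.295% of all genes passed, 0.288% as higher, and DESeq2 again called both, against 0.476%. At an unadjusted p under 0.05 there were 5 inhibitors in F0_3NC vs F0_5NC (Errfi1, Dusp1, Spry2 and Spry4 higher, Spry1 lower), against 11.9% of all genes. There were also 5 in F0_5251KD vs F0_5251OV (Errfi1, Dusp1, Dusp6, Spry2 and Spry4, all higher), against 6.01% of all genes. In F0_5251KD vs F0_3NC, 0 passed by edgeR, with 0.0245% of all genes passing, and 3 (Dusp1, Spry1 and Errfi1, all higher) had an unadjusted p under 0.05, against 4.74% of all genes. By DESeq2, Dusp1 passed in that comparison, against 0.0932% of all genes. In F0_5251OV vs F0_5NC, 0 inhibitors and 0 genes of any kind passed by edgeR, 1 inhibitor (Spry1, lower) had an unadjusted p under 0.05 against 8.76% of all genes, and by DESeq2 0 inhibitors passed against 0.132% of all genes. For the difference of effects, 0 passed by edgeR or DESeq2 (0.152% of all genes by DESeq2), and Dusp1 and Spry1 had an unadjusted p under 0.05, against 11.3% of all genes.

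The libraries of the groups did not overlap for 5 inhibitors in F0_3NC vs F0_5NC (Errfi1, Dusp1, Spry2 and Spry4 higher, Spry1 lower), against 17% of all genes, and for 5 in F0_5251KD vs F0_5251OV (Errfi1, Dusp1, Dusp6, Spry2 and Spry4, all higher), against 13.1%. They did not overlap for Dusp1 and Spry1 in F0_5251KD vs F0_3NC, both higher, against 11.8% of all genes, and for Dusp2 and Spry1 in F0_5251OV vs F0_5NC, both lower, against 13.9%. With the counts of a group pooled, as in the model that the study's methods name, 0 inhibitors passed in F0_5251KD vs F0_3NC (0.716% of all genes), 0 in F0_5251OV vs F0_5NC (0.955%), Errfi1 in F0_3NC vs F0_5NC (1.53%), and Errfi1, Dusp1 and Spry2 in F0_5251KD vs F0_5251OV (1.15%). Pooling leaves the variation from library to library out of the test.

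The median log2 fold change of the 10 inhibitors was 0.18 in F0_5251KD vs F0_3NC (7 higher, 3 lower), -0.04 in F0_5251OV vs F0_5NC (4 higher, 6 lower), 0.38 in F0_3NC vs F0_5NC (8 higher, 2 lower) and 0.45 in F0_5251KD vs F0_5251OV (9 higher, 1 lower). The medians over all genes tested were between -0.004 and 0.000 in these comparisons. The comparisons share libraries, so their values are given side by side and were not set against each other.

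**Figure D3:**
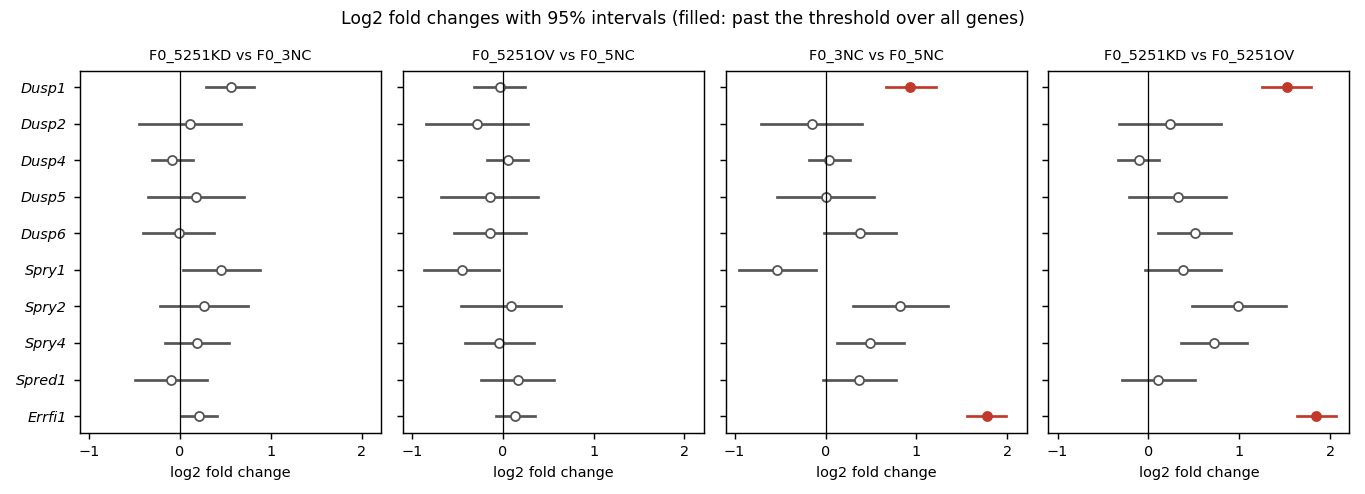
Log2 fold change (horizontal axis) of each inhibitor with its 95% interval in 4 comparisons. Filled points passed the threshold over all genes and open points did not. Errfi1 at 1.78 and 1.84 and Dusp1 at 0.93 and 1.52 are the filled points, and they stand in the comparisons between backbones.

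The remainder of the pathway was read from 6 lists: other members of the Dusp, Spry and Spred families, receptor tyrosine kinases, growth factor ligands, the Ras to ERK cascade, p38 and JNK kinases, and other inhibitors. Of the 87 genes listed, 79 were tested, and 0 of them passed by edgeR in any of the 5 comparisons. At an unadjusted p under 0.05 there were 4 of the 79 in F0_5251KD vs F0_3NC (4.74% of all genes) and 8 in F0_5251OV vs F0_5NC (8.76%). There were 11 in F0_3NC vs F0_5NC (11.9% of all genes), 7 in F0_5251KD vs F0_5251OV (6.01%) and 13 for the difference of effects (11.3%). DESeq2 called 1, Dusp10 in F0_3NC vs F0_5NC (0.642% of all genes), and the pooled-count test called 0. The medians of the lists were between -0.16 and 0.11 in F0_3NC vs F0_5NC and between -0.09 and 0.16 in F0_5251KD vs F0_5251OV.

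Dusp10, a phosphatase of p38 and JNK, had 27.34 ± 2.58 CPM in F0_3NC and 19.92 ± 1.27 CPM in F0_5NC, a log2 fold change of 0.46 (SE 0.102) with an adjusted p of 0.108 by edgeR. In F0_5251KD vs F0_5251OV the same gene stood at 0.02 (SE 0.102), and the difference of effects was -0.44 (SE 0.144), with an adjusted p of 0.402 by edgeR. Spry3 was too low to test, and Spred2 and Spred3 had log2 fold changes of 0.07 (SE 0.149) and -0.03 (SE 0.099) in F0_3NC vs F0_5NC.

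Among receptors and ligands, the stem cell factor receptor Kit had 39.04 ± 6.65 CPM in F0_5251KD and 26.68 ± 1.10 CPM in F0_3NC (log2 fold change 0.55, SE 0.201, adjusted p 0.897 by edgeR). Kit stood at -0.40 (SE 0.201) in F0_3NC vs F0_5NC and at 0.31 (SE 0.199) in F0_5251KD vs F0_5251OV. Its ligand Kitl, made by Sertoli cells, had 33.38 ± 9.14 CPM in F0_3NC and 19.08 ± 0.65 CPM in F0_5NC (0.81, SE 0.253, adjusted p 0.291 by edgeR). In F0_5251KD Kitl had 20.51 ± 5.95 CPM, -0.70 (SE 0.252) against F0_3NC and 0.12 (SE 0.257) against F0_5251OV. The receptor Pdgfra stood at -0.41 (SE 0.132) and the ligand Igf2 at -0.50 (SE 0.172) in F0_3NC vs F0_5NC. In F0_5251KD vs F0_5251OV they stood at 0.13 (SE 0.132) and 0.15 (SE 0.174). Of the 16 receptors, 13 were lower in F0_3NC than in F0_5NC and 14 were lower in F0_5251OV than in F0_5NC, with medians of -0.16 and -0.26, and 0 passed the threshold by edgeR or DESeq2.

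Genes of the cascade itself had a narrow range. The log2 fold changes of the 17 genes from adaptors through Ras and Raf to ERK were between -0.30 and 0.19 in F0_3NC vs F0_5NC, with Braf at 0.19 (SE 0.084), and the adaptor Grb2 stood at -0.28 (SE 0.126) in F0_5251OV vs F0_5NC. Of the p38 family, Mapk12 stood at 0.80 (SE 0.336) in F0_5251KD vs F0_3NC and Mapk13 at -0.66 (SE 0.374) in F0_3NC vs F0_5NC, both at about 1 CPM or less. Of the other inhibitors, the Ras GTPase activator Rasal2 stood at 0.17 (SE 0.074) and the tyrosine phosphatase Ptpn7 at -0.62 (SE 0.259) in F0_3NC vs F0_5NC.

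Of 10 tested output genes of ERK, 1 passed the threshold, in F0_3NC vs F0_5NC (0.331% of all genes passed) and in F0_5251KD vs F0_5251OV (0.295%). Ier3, an early response gene that also prolongs ERK activity, had 6.376, 8.753 and 8.253 CPM in F0_3NC against 2.036, 1.255 and 1.343 CPM in F0_5NC (log2 fold change 2.32, SE 0.247, adjusted p 0.000416 by edgeR). It had 11.30, 8.294 and 6.958 CPM in F0_5251KD against 1.316, 1.239 and 1.744 CPM in F0_5251OV (2.62, SE 0.249, adjusted p 9.39e-05). The ETS factors Etv4 and Etv5, which usually follow ERK with Dusp6 and the Sprouty genes, did not pass: Etv5 had 18.75 ± 1.55 CPM in F0_3NC and 19.78 ± 0.54 CPM in F0_5NC (-0.08, SE 0.105), and Etv4 was under 1 CPM. Ccnd1 stood at 0.15 (SE 0.220). Plaur was chosen after its values were seen, because it had the highest log2 fold change of the list (2.63, SE 0.649, 1.21 ± 0.16 against 0.19 ± 0.16 CPM), and it passed by DESeq2 and the pooled-count test in F0_3NC vs F0_5NC but not by edgeR (adjusted p 0.164).

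The immediate early genes, transcription factors and mRNA decay factors that are switched on within minutes of a stimulus, showed the largest log2 fold changes of the 8 lists. Of 22, 8 passed as higher in F0_3NC vs F0_5NC (0.331% of all genes passed), 14 in F0_5251KD vs F0_5251OV (0.295%) and 4 in F0_5251KD vs F0_3NC (0.0245%). In F0_5251OV vs F0_5NC 0 passed by edgeR or DESeq2, and 4, all of them lower, had an unadjusted p under 0.05 (8.76% of all genes). Past the threshold or not, 18, 22, 20 and 4 of the 22 were higher in these comparisons. The median log2 fold changes of the list were 0.99, 2.06, 0.52 and -0.18 in that order. For the difference of effects 0 passed by edgeR, 13 had an unadjusted p under 0.05 (11.3% of all genes) and 6 passed by DESeq2 (0.152%). The genes that passed in F0_5251KD vs F0_3NC were Btg2 (1.37, SE 0.153, adjusted p 0.00856 by edgeR), Fos (1.58, SE 0.227, 0.0328), Egr1 (1.07, SE 0.137, 0.0202) and Zfp36 (0.91, SE 0.122, 0.0223).

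Between the controls Egr1 rose by a log2 fold change of 3.49 (SE 0.166) and Myc by 3.38 (SE 0.275), followed by Egr2 (3.11), Btg2 (2.38), Nr4a3 (2.02), Fos (1.94), Junb (1.63) and Zfp36 (1.47). In F0_5251KD vs F0_5251OV the 14 genes that passed had values between 1.11 (Jun) and 4.94 (Egr1). The others were Klf6 (1.44), Fosb (1.86), Nr4a3 (2.26), Nr4a2 (2.42), Zfp36 (2.55), Ier2 (2.58), Myc (2.66), Atf3 (3.01), Junb (3.25), Btg2 (3.89), Fos (4.58) and Egr2 (4.65). Errfi1 (1.84) and Dusp1 (1.52) lay in the lower part of that range, and the remaining 8 inhibitors lay below it, the highest of them Spry2 at 0.99. That range is of genes picked because they passed, whereas those 8 inhibitors did not pass. Over all 22 genes, past the threshold or not, the range was 0.08 to 4.94, and of the inhibitors only Dusp4 (-0.10) lay below it. This list too was written with earlier results of these data known.

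**Figure D4:**
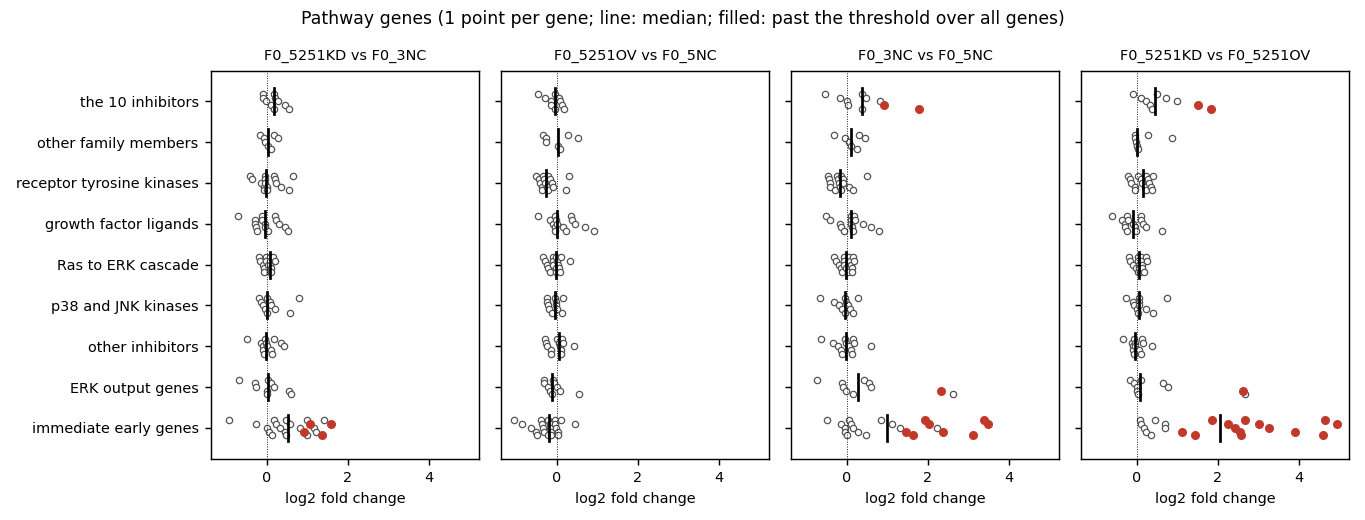
Log2 fold change (horizontal axis) of the 10 inhibitors and of 8 lists of pathway genes in 4 comparisons, 1 point per gene, with the median of each list as a line. Filled points passed the threshold over all genes. Filled points occur among the inhibitors, the ERK output genes and the immediate early genes, and none of the 79 genes of the other 6 lists is filled.

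Few markers of the cell types that the samples could hold passed the threshold, and the part of those that moved in the results above was not tested. Of 59 tested markers, 0 passed by edgeR in F0_3NC vs F0_5NC, F0_5251KD vs F0_3NC or F0_5251OV vs F0_5NC (13, 3 and 14 at an unadjusted p under 0.05, and 1, 0 and 1 by DESeq2), and 1 passed in F0_5251KD vs F0_5251OV, the smooth muscle gene Tagln (log2 fold change 1.0, SE 0.141, adjusted p 0.00455 by edgeR). In that comparison, in which Errfi1 and Dusp1 passed, 13 markers had an unadjusted p under 0.05 (12 of them higher). DESeq2 called 5 (Cd14, Cyp11a1, Hba-a1 and Tagln higher, Crisp1 lower) and the pooled-count test 6. The epididymis gene Crisp1 stood at -8.6 (SE 1.975) by edgeR. All 6 Leydig cell genes and all 6 endothelial genes were higher in F0_5251KD. All 10 Sertoli cell genes were lower in F0_3NC than in F0_5NC, with summed levels of 774.6 to 1029 and 1008 to 1491 CPM. All 10 were also lower in F0_5251OV (802 to 981.5 CPM) than in F0_5NC, as were all 6 Leydig cell genes, whereas 9 of the 10 Sertoli cell genes were higher in F0_5251KD (946.3 to 1047 CPM) than in F0_5251OV, and the median log2 fold changes of the Sertoli list were -0.27, -0.29 and 0.08 in these comparisons. The 8 macrophage genes summed to 81.53 to 112.3 CPM in F0_3NC, 84.83 to 117.4 in F0_5NC, 86.38 to 104.9 in F0_5251KD and 85.06 to 89.19 in F0_5251OV, ranges that overlap. Cd14, a macrophage gene, was the marker that DESeq2 called in F0_3NC vs F0_5NC (log2 fold change 1.85, SE 0.408, adjusted p 0.105 by edgeR).

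Globin genes summed to 39.08 to 46.28 CPM in F0_3NC, 26.66 to 47.74 in F0_5NC, 51.71 to 88.98 in F0_5251KD and 20.74 to 28.16 in F0_5251OV. The red cell marker sums were thus apart between F0_5251KD and F0_5251OV, and between F0_5251KD and F0_3NC, in the direction of Dusp1. Endothelial sums were apart in the same comparisons and direction. They were 27.15 to 28.96 CPM in F0_5251KD, 22.18 to 24.8 in F0_3NC, 23.11 to 28.81 in F0_5NC and 21.85 to 22.68 in F0_5251OV. Spermatocyte sums were lower in F0_5251KD (953.6 to 1039 CPM) than in F0_3NC (1045 to 1204 CPM). The F0_5251KD sums overlapped those of F0_5251OV (1000 to 1151 CPM). Epididymis genes summed to 0.4508 to 6.206 CPM in F0_3NC, 9.943 to 94.17 in F0_5NC, 0.3191 to 0.4536 in F0_5251KD and 0.5168 to 63.96 in F0_5251OV. These sums were apart, with the LV5 group higher, between the controls and between the treated groups, while F0_3NC overlapped F0_5251OV. Of these genes only Crisp1 was tested. It had means of 2.49 CPM in F0_3NC, 64.45 in F0_5NC, 0.09 in F0_5251KD and 36.31 in F0_5251OV. How the red cell, endothelial, spermatocyte and epididymis sums relate to the levels of the inhibitors was not tested.

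Averaged over the 10 inhibitors, the log2 CPM of each library, centred on the gene's mean over the 12 libraries, was 0.26 to 0.42 in F0_5251KD, 0.12 to 0.21 in F0_3NC, -0.30 to -0.14 in F0_5NC and -0.38 to -0.22 in F0_5251OV. This mean does not stand for each inhibitor. Errfi1 ran from -1.136 to 1.088 and Dusp1 from -0.871 to 1.069, but Dusp4 only from -0.112 to 0.203. Spry1 lay below its mean in each F0_3NC library and above it in each F0_5NC library. Among the genes outside the set whose centred profile over the 12 libraries lay nearest to the mean of the 10 inhibitors, out of 15155 genes with at least 1 CPM, were Atf4, a transcription factor of the integrated stress response, at a root mean square distance of 0.102 (log2), Slc25a30 (0.122), Nt5dc3 (0.138) and Mat2a (0.139), which makes S-adenosylmethionine. The median distance over all genes compared was 0.327, and the mean profile itself lay 0.281 from a flat line. Atf4 had 44.87 CPM in F0_3NC, 36.33 in F0_5NC, 49.42 in F0_5251KD and 36.69 in F0_5251OV.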

How the data were processed

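Per the study's methods, mRNA of mouse testis was enriched with oligo(dT), copied with random hexamers and sequenced on an Illumina HiSeq instrument, and reads were aligned to reference genes with SOAPaligner. The labels give mm10; no counting tool is named in those sources. Estimated counts and RPKM values per gene were deposited by the authors for 12 libraries. The counts were rounded, as 12.0% had a fractional part (over 1e-06). Left unused were 18 per-sample columns that could not be tied to a sample here and 14 columns of the authors' averages.

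The quasi-likelihood F test of edgeR 4.0.16 (R 4.3.3) was run two-sided on 4 group means over 12 libraries, after filterByExpr and TMM scaling, with Benjamini-Hochberg adjustment at 0.05. The code was tested on simulated counts. CPM are counts divided by the product of library total and TMM factor, and these factors were between 0.97 and 1.078. Also run were upper-quartile scaling, DESeq2 1.42.0, all genes without a filter, genes with 1 CPM in 3 libraries, limma 3.58.1 on log2(RPKM + 1) and log2(RPKM + 0.1), fits of the 2 groups alone, a replicate block, each library left out in turn, and counts pooled per group (random sampling model, adjusted p at most 0.001 and absolute log2 ratio of at least 1). Gene IDs were matched to RefSeq (20564 of 20718).

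The inhibitors and gene lists were chosen with earlier results of these data known. Named besides the inhibitors were every list gene that passed the threshold or, where none did, the gene with the smallest p in each direction over F0_5251KD vs F0_3NC, F0_5251OV vs F0_5NC and F0_3NC vs F0_5NC, and the 5 genes nearest in profile, of which 1 is not reported here; Cd14, Tagln, Crisp1, Cyp11a1, Hba-a1, Spred2, Spred3, Etv4, Etv5, Ccnd1 and Plaur were named after their values were seen. Motifs were the usual sites of early response factors.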

Additional observations from a re-analysis of the deposited data

How the results depend on the processing

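Of 790 alternative values of single inhibitors, 752 kept their direction and their side of the threshold, and the calls of Errfi1 were kept under each alternative. Dusp1 passed under DESeq2 in F0_5251KD vs F0_3NC (1 inhibitor) and fell short of the 1 log2 unit that the pooled-count test requires in F0_3NC vs F0_5NC (1 inhibitor left, Errfi1). In F0_5251KD vs F0_5251OV, Spry2 passed in the pooled-count test and Spry4 under limma on log2(RPKM + 0.1), 3 inhibitors each. The count over all genes moved more. In F0_5251KD vs F0_3NC it was 4 and became 19 (DESeq2), 0 (limma, 0.1) and 143 (pooled). In F0_5251OV vs F0_5NC it was 0 and became 27 (DESeq2), 3 (no filter), 3 (only the 2 groups) and 191 (pooled). In F0_3NC vs F0_5NC it was 54 and became 131 (DESeq2), 34 (limma, 0.1) and 307 (pooled), in F0_5251KD vs F0_5251OV it was 48 and became 97 (DESeq2) and 231 (pooled), and for the difference of effects it was 0 and became 31 (DESeq2) and 1 (limma, either pseudocount). The cause was not tested.

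Without 1 library, the count of inhibitors past the threshold stayed at 0, 0, 2, 2 and 0 in the 5 comparisons. Over all genes the counts were 0 to 4, 0 to 1, 30 to 54, 29 to 43 and 0 to 1. The libraries that moved them by over 1.5 times were F0_3NC replicates 1 and 3 (0) and F0_5251KD replicates 1 (1) and 3 (0) in F0_5251KD vs F0_3NC, F0_5NC replicates 2 and 3 (1) in F0_5251OV vs F0_5NC, F0_3NC replicate 2 (35) and F0_5NC replicate 3 (30) in F0_3NC vs F0_5NC, F0_5251KD replicate 1 (29) and F0_5251OV replicates 1 and 2 (31) in F0_5251KD vs F0_5251OV, and F0_5NC replicate 3 (1) for the difference.

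The labels number the replicates 1 to 3 in each group. Of 18 correlations of same-numbered libraries, between -0.301 and 0.198, 3 were over 0.1, and 5 of 12 libraries correlated best with their own number. These values show no clear pairing by number, but with 3 libraries a group they cannot exclude one. With the replicate block, 2 genes passed in F0_5251KD vs F0_3NC in place of 4, and inhibitors past the threshold remained 0, 0, 2, 2 and 0.

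Other reversals were of inhibitors whose 95% intervals included 0. In F0_5251KD vs F0_3NC the log2 fold change of Dusp6 turned from -0.01 to 0.003 under the filter of 1 CPM, 0.002 under limma with either pseudocount and 0.007 with pooled counts. In F0_3NC vs F0_5NC that of Dusp4 was -0.003 with pooled counts, and that of Dusp5 was -0.008 (DESeq2 and no filter), -0.016 (upper quartile and limma on log2(RPKM + 1)), -0.012 (filter of 1 CPM and only the 2 groups), -0.020 (limma, 0.1) and -0.037 (pooled). With 1 library left out at a time, the following log2 fold changes crossed 0. In F0_5251KD vs F0_3NC these were Dusp2 from -0.18 to 0.35, Dusp6 from -0.10 to 0.073 and Spred1 from -0.22 to 0.16. In F0_5251OV vs F0_5NC these were Dusp1 from -0.14 to 0.076, Dusp4 from -0.028 to 0.11, Dusp5 from -0.39 to 0.11, Dusp6 from -0.30 to 0.028, Spry2 from -0.11 to 0.33 and Spry4 from -0.087 to 0.053. In F0_3NC vs F0_5NC these were Dusp2 from -0.38 to 0.15, Dusp4 from -0.014 to 0.11 and Dusp5 from -0.11 to 0.15. For the difference of effects these were Dusp6 from -0.026 to 0.30 and Spry2 from -0.055 to 0.37.

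Spry1, Spry2, Spry4, Dusp2 and Dusp5 rest on 14 to 82 counts a library, which limits their precision.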
